A study of Mus musculus with 84 samples.

Results

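Hematopoietic progenitors from the bone marrow of 12 month old mice were compared with those of 6 month old mice by RNA sequencing, in control animals that did not carry the leukemia transgene of the study. The comparison used 8 of the 84 libraries of the series, 4 at each age, chosen by their labelled age, genotype and population. The cells, called HPC, were labelled as committed hematopoietic progenitors, and the control genotype was labelled wild type. Both ages carried the label 8 wk dox and the note adult induction, so the controls had the same doxycycline label as the mice with the transgene. The label does not say whether doxycycline was given for or until 8 weeks, so the time since doxycycline at each age is not known. Those mice expressed MLL-ENL, which joins human KMT2A to MLLT1 and occurs in acute leukemia, from a transgene under tetracycline control. Their 8 HPC libraries at the same ages, 4 at 6 and 4 at 12 months, were used here to see whether an age difference found in controls was present in separate animals. These libraries also entered the same fit, so the spread behind the control p-values rests on all 16 libraries. The study asked how the start of MLL-ENL leukemia depends on age, and the control contrast describes how these ages differ without the fusion. The sources used here name neither the promoter that drives the transgene nor the sex of the mice nor the gates of the sort. Libraries are called by their animal identifiers. These differed between the ages and all began with 1 at 6 months and with 9 at 12 months, so that age, mouse cohort and any set of libraries cannot be told apart. Nothing in the labels says that the libraries of a group came from separate cohorts or sorts, and p-values measure the spread between these samples.

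Committed progenitors divide rapidly and feed the myeloid, erythroid and lymphoid lineages, whereas the stem cells above them divide rarely. With age, mouse stem cells are known to accumulate in number, to favour myeloid and platelet output over lymphoid output, and to raise a set of genes that includes the retinal dehydrogenase Aldh1a1, the adhesion molecule Selp and the clotting factor Vwf.

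The 8 control libraries held 10985358 to 29470068 counts, with the deepest, 1618, at 6 months, and 13059 of 41388 mouse genes passed the filter on low counts. Transgene reads numbered 0 to 6 in each control library, at most 0.423 CPM (counts scaled to library size), against 15 to 83 reads and 1.142 to 5.16 CPM in the MLL-ENL libraries. Progenitor antigens were present at both ages. Kit ran from 452.1 to 1102 CPM at 6 months and from 696.7 to 1160 CPM at 12 months, and Cd34 from 2144 to 2516 and from 2231 to 2436 CPM. Of 11 lineage antigens that such a sort should lack, Cd3e, Cd8a, Cd2 and Ly6g did not pass the filter. Of those that did, Itgam reached 109.3 CPM, Klrb1c 17.7 CPM and Cd4 13 CPM, and Cd5 and Ms4a1 stayed at or below 4.37 CPM. At each age 2 libraries held Y chromosome transcripts without Xist, 1 held Xist without them, and 1 held both (1618 at 6 months and 9806 at 12 months), so the ages were balanced in this respect. Whether these 2 libraries hold cells of more than 1 animal is not stated, and each was counted as 1 sample. Xist (-0.48 ± 1.65, adjusted p = 0.92) and Ddx3y (0.29 ± 1.64, adjusted p = 0.95) accordingly did not pass the test on the log2 scale. Kmt2a (log2 fold change 0.03 ± 0.20 SE, adjusted p = 0.97) and Mllt1 (-0.34 ± 0.15, adjusted p = 0.28), the mouse genes that match the transgene, did not pass it either.

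At an FDR of 0.05 in edgeR's quasi-likelihood test, with all 16 HPC libraries in the fit, 55 genes were higher at 12 months and 18 were lower. These 73 genes are 0.559% of the 13059 tested, 0.421% in the higher and 0.138% in the lower direction. Without adjustment 2102 genes, 16.1%, had a p under 0.05. In all 73 called genes the 4 libraries of one age lay outside the range of the 4 of the other, whereas among all genes tested 4.6% did so in the higher and 3.9% in the lower direction. As the genes were called on these same libraries, this separation is no separate support for the calls. The median log2 fold change of all tested genes was -0.02, with 5th and 95th percentiles of -0.56 and 0.50. Among the genes that rose, the median size was 0.59 on the log2 scale and 13 rose by more than 2-fold. Among those that fell the median was 0.53, from 0.36 to 1.32, and 3 fell by more than 2-fold. When the tested genes were split into 4 equal parts by level, 42 of the 73 calls lay in the part with the highest levels.

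Among genes with a mean log2 CPM of at least 1, the largest rises were in Aldh1a1, which makes retinoic acid from retinal and marks primitive blood cells, and in Clec1a, a C-type lectin receptor. Aldh1a1 (chr19:20492715-20643465, GRCm38) stood at 3.59, 2.14, 1.34 and 3.42 CPM in the 6 month libraries and at 11.6, 16.8, 13 and 14.1 CPM in the 12 month libraries. The lowest 12 month library was more than 3 times the highest 6 month one. The mean rose from 2.62 ± 1.07 to 13.9 ± 2.20 CPM (SD, n = 4 each), a log2 fold change of 2.38 ± 0.26 (SE, adjusted p = 0.00047 by edgeR). Clec1a (chr6:129424772-129452000) stood at 4.37, 3.54, 1.85 and 2.75 CPM and then at 10.6, 14.0, 13.3 and 15.7 CPM, a log2 fold change of 2.09 ± 0.27 (adjusted p = 0.0023 by edgeR). Aspa, aspartoacylase, which splits N-acetylaspartate into acetate and aspartate, stood at 3.96, 2.31, 1.85 and 4.09 CPM and then at 9.60, 10.4, 6.96 and 11.6 CPM (1.64 ± 0.23, adjusted p = 0.0039). Sdc2, the heparan sulfate proteoglycan syndecan 2, rose from 5.59 ± 1.34 to 13.6 ± 0.895 CPM (1.27 ± 0.23, adjusted p = 0.031). In each of these genes every 12 month library lay above the highest 6 month library.

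Cap1, a cyclase-associated protein that recycles actin monomers, gave the smallest p of all genes. Its levels were 196.3, 191.4, 212.4 and 207.1 CPM at 6 months and 579.8, 644.8, 600.2 and 595.0 CPM at 12 months. The spread within an age was a few percent of the mean, while the means differed 3.0-fold (log2 fold change 1.58 ± 0.08, adjusted p = 9.7e-09 by edgeR). In MLL-ENL mice Cap1 stood at 222.9, 211.4, 218.2 and 182.1 CPM at 6 months and at 599.0, 661.7, 544.2 and 595.9 CPM at 12 months, so that the 8 libraries of each age formed 1 narrow band whatever the genotype. Cap1 (chr4:122859047-122886056) overlaps the exons of its neighbour Ppt1, on the opposite strand, by 129 bases, 3.69% of its exon length. Ppt1, a lysosomal thioesterase, had a mean of 228.0 CPM at 6 and 287.0 CPM at 12 months (log2 fold change 0.33, adjusted p = 0.055).

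A further pair of called genes lay on the same stretch of chromosome 4. Zfp691 (chr4:119169513-119174195), a zinc finger gene, stood at 8.83, 8.65, 8.56 and 6.17 CPM and then at 17.1, 17.6, 18.6 and 15.3 CPM (1.09 ± 0.16, adjusted p = 0.0057). Cldn19 (chr4:119255414-119262438), a tight junction claudin of kidney and nerve, had 3 reads in the 4 libraries at 6 months, all in 1618, and 48 at 12 months, with 17, 8, 11 and 12 in each. The ratio, per total counts, was 23 (95% exact interval 7.40 to 115.2, for counting error only; adjusted p = 0.022 by edgeR). From Zfp691 to Cap1 the interval spans 3.72 Mb and holds 24 tested genes, of which these 3 were called and 6 had an unadjusted p under 0.05, with a median log2 fold change of 0.13. On chromosome 4 as a whole 5 of 817 tested genes were called, and called genes lay on 19 chromosomes. Cldn19 and the interval were chosen after their values were seen, as were the other genes named here that fall outside the rule for naming genes.

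**Figure D1:**
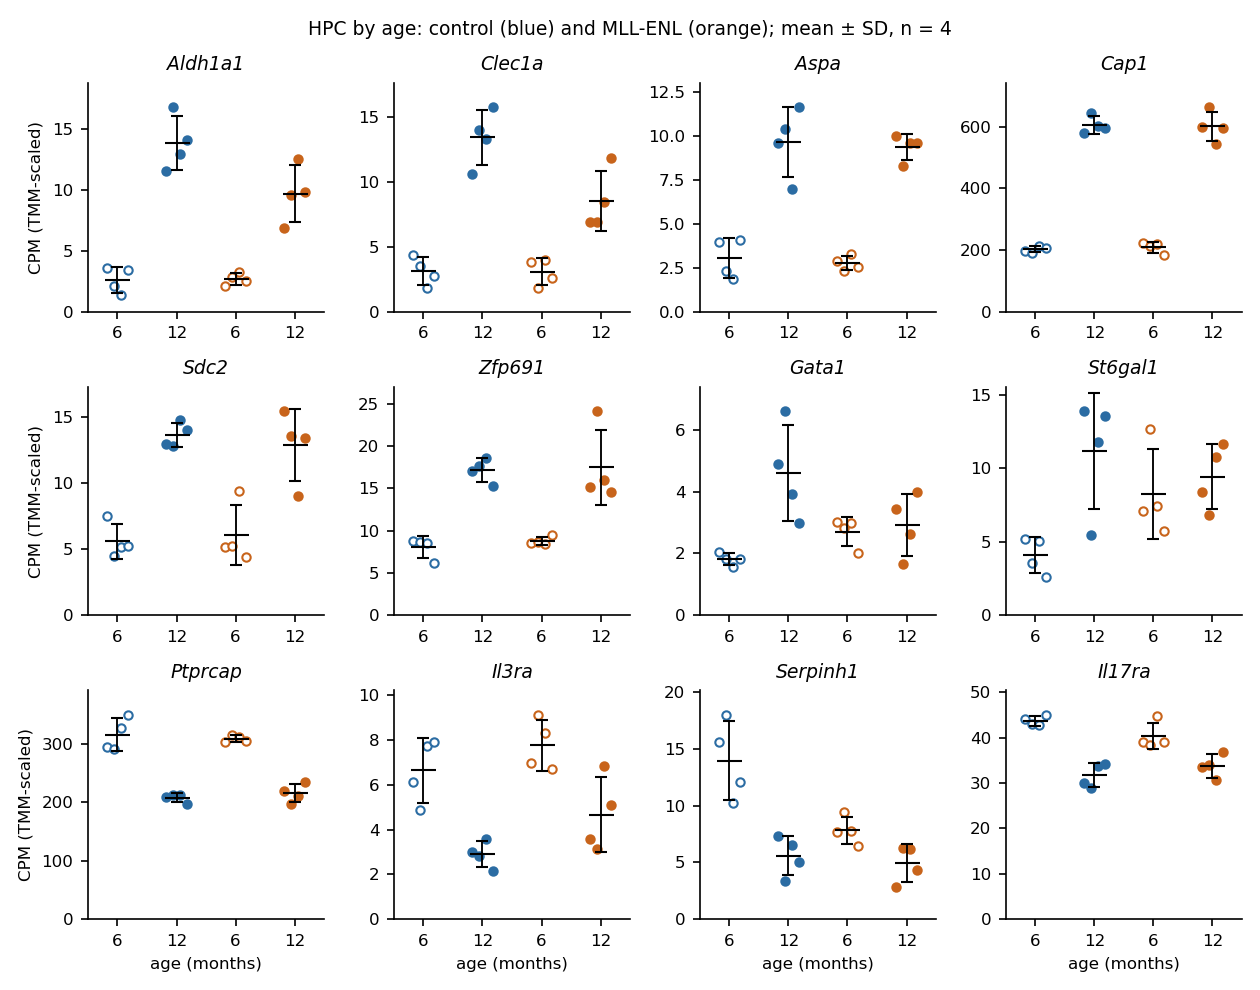
TMM-scaled CPM of 12 genes in each HPC library at 6 months (open) and 12 months (filled), for control (blue) and MLL-ENL mice (orange), with mean and SD of 4 libraries. Cap1 lies between 182.1 and 222.9 CPM in all 8 libraries at 6 months and between 544.2 and 661.7 CPM in all 8 at 12 months, and Gata1 and St6gal1 overlap between the ages in MLL-ENL mice.

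Further genes rose with a range of known roles. Cavin1, a coat protein of caveolae, stood at 76.7 to 117.5 CPM at 6 months and at 162.4 to 212.0 CPM at 12 months (0.90 ± 0.13, adjusted p = 0.0039). Strn, striatin, a scaffold of the PP2A phosphatase, stood at 27.6 to 41.1 CPM at 6 months and at 45.2, 102.3, 43.6 and 103.5 CPM at 12 months (1.16 ± 0.24, adjusted p = 0.039). The 12 month libraries of Strn thus fell into a lower pair near the 6 month range and a higher pair. Ctnna1, the alpha-catenin that ties cadherins to actin, rose by 0.58 on the log2 scale, as did Mrtfb, an actin-regulated transcription cofactor (0.58 ± 0.09, adjusted p = 0.013). Prune2 (1.14 ± 0.24), the kinase gene Stk38l (0.82 ± 0.16), Cerkl (0.81 ± 0.16) and Ccdc6 (0.78 ± 0.12) completed the upper range together with Gatad1 (0.76 ± 0.11), a reader of histone marks. Cerkl shares 21.3% of its exon bases with Itga4 on the opposite strand. Without a stated strand setting, reads in that shared part cannot be told apart from those of Itga4, which had means of 65.5 and 59.6 CPM.

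Among the genes that rose by less, Gnb1, the beta subunit of heterotrimeric G proteins, went from 953.4 to 1361 CPM at 6 months to 1500 to 1902 CPM at 12 months (0.54 ± 0.11, adjusted p = 0.039). The small GTPase Nras went from 428.3 to 548.4 CPM up to 590.9 to 714.0 CPM (0.47 ± 0.09, adjusted p = 0.039). Rgs18, a brake on G protein signalling that is strong in megakaryocytes and progenitors, rose by 0.58 ± 0.12, and the antiviral zinc finger gene Zc3hav1 by 0.53 ± 0.11, each at an adjusted p of 0.039. Gsk3b, a kinase of the Wnt pathway, rose by 0.57, Traf2, an adaptor of TNF receptors, by 0.43 and the histone methyltransferase gene Nsd3 by 0.58. In these genes the groups did not overlap but came close, as in Gsk3b, whose highest 6 month library had 261.4 CPM and whose lowest 12 month library had 281.5 CPM. Library 1717 was the lowest at 6 months in 32 of the 55 genes that rose and 1618 the highest in 35.

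Gata1, the master regulator of red cell and megakaryocyte development, and St6gal1, which adds sialic acid to glycoproteins, were low in abundance and passed the test, but in the 8 fits that left out 1 library Gata1 was called in 1 and St6gal1 in 2. Gata1 had 2.05, 1.81, 1.57 and 1.81 CPM at 6 months and 4.88, 6.6, 3.93 and 2.97 CPM at 12 months (1.33 ± 0.28, adjusted p = 0.039). St6gal1 had 5.2, 3.54, 5.09 and 2.61 CPM and then 13.9, 5.47, 11.8 and 13.6 CPM (1.43 ± 0.31, adjusted p = 0.045). For St6gal1 the lowest 12 month library, 9756, lay just above the highest at 6 months. Of 15 tested erythroid genes Gata1 was the only one called, 9 of the 15 had a negative log2 fold change, and the median was -0.48. The carbonic anhydrase Car2 stood at 1774 to 3422 CPM at 6 months and 3629 to 4790 CPM at 12 months (0.68 ± 0.23, adjusted p = 0.15), and the globin gene Hbb-bs at 5.91 to 39.6 and 3.72 to 16.4 CPM (-1.81 ± 0.66, adjusted p = 0.20).

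The genes that fell were led by Serpinh1, a collagen chaperone, Il3ra, the receptor chain for interleukin 3, a growth factor of myeloid progenitors, and Rps4l. Serpinh1 stood at 15.6, 18, 10.2 and 12.1 CPM at 6 months and at 7.32, 3.39, 6.55 and 5.06 CPM at 12 months (-1.32 ± 0.26, adjusted p = 0.039). Il3ra stood at 6.11, 4.86, 7.72 and 7.91 CPM and then at 2.99, 2.83, 3.58 and 2.17 CPM (-1.20 ± 0.24, adjusted p = 0.039). A second cytokine receptor gene, Il17ra, fell from 43.7 ± 1.05 to 31.7 ± 2.67 CPM (-0.46 ± 0.09, adjusted p = 0.039). In these genes the ages did not overlap, but Serpinh1 and Il3ra were each called in only 2 of the 8 fits that left out 1 library.

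Ptprcap, which binds the phosphatase CD45, had the smallest p of the genes that fell. It stood at 295.8, 291.4, 328.4 and 350.2 CPM at 6 months and at 210.1, 213.2, 212.2 and 197.4 CPM at 12 months (-0.60 ± 0.08, adjusted p = 0.0016 by edgeR). Of its exon bases 76.0% are shared with Rps6kb2 on the opposite strand, which had means of 23.3 and 22.9 CPM, and 26.8% with Coro1b on the same strand, with 317.1 and 298.6 CPM. The other genes that fell included the intermediate filament gene Vim (-0.43 ± 0.09), the LIM protein gene Csrp1 (-0.50 ± 0.11), the GTPase gene Rhoa (-0.36 ± 0.07), Csk, the kinase that holds Src kinases in check (-0.38), and the metalloprotease gene Adam15 (-0.79 ± 0.17). Atp5d, a subunit of ATP synthase (-0.50 ± 0.10), Ppdpf (-0.49 ± 0.09), Nat2 (-0.51 ± 0.11) and the lysosomal pump gene Atp13a2 (-0.75 ± 0.14) fell as well. Rps10 (-0.61 ± 0.13) and Rpl27a (-0.56 ± 0.12) encode ribosomal proteins, and Rps4l (-1.26 ± 0.23) is annotated as a transcribed processed pseudogene. These 3 have near-identical copies elsewhere in the genome, and their values are uncertain for that reason.

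The genes that rose had a median exon length of 5331 bases and a median GC content of 46.9%, those that fell 2608 bases and 57.0%, and all tested genes 4195 bases and 49.4%. Of the 55 genes that rose 43 were longer than the median of all tested genes, and of the 18 that fell 5 were. Across all tested genes, which are not independent replicates, the log2 fold change had a Spearman correlation of -0.23 with GC content and 0.04 with length in controls, and of -0.26 and 0.14 in MLL-ENL. The part of length and GC content in the calls was not tested.

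Among the lists of genes described here, the 26 genes known from aged stem cells were the only list with more than 1 call. The lists and their members were chosen with earlier results of these data known, so these counts are a description and no independent support. Of these 21 were tested, 17 had a positive log2 fold change, and 2 were called, both higher, with a median of 0.26. Of all tested genes 47.3% were positive and 0.421% were called higher, with a median of -0.02. The called members were Aldh1a1 and Nupr1, a stress-induced chromatin protein, which had 36 reads in the 6 month and 91 in the 12 month libraries (1.91 ± 0.40, adjusted p = 0.039). Plscr2, a phospholipid scramblase, stood at 1.11, 1.24, 0.615 and 3.89 CPM and then at 6.29, 7.73, 8.00 and 17.3 CPM (2.55 ± 0.57, adjusted p = 0.055), and passed the test in MLL-ENL (3.46, adjusted p = 0.019). Selp had 35.3 to 108.9 CPM at 6 months and 24.2 to 90 CPM at 12 months (adjusted p = 0.72), and Vwf, Clu, Alcam and Slamf1 also overlapped between the ages. Stem and multipotent progenitor genes gave no call among 20, with a median of 0.07. Mecom (0.54 ± 0.15, adjusted p = 0.09) and Angpt1 (0.49 ± 0.17, adjusted p = 0.17) had the smallest p of these, and Mecom passed the test in MLL-ENL (0.77, adjusted p = 0.023). The Hoxa genes with Meis1, the targets best known for MLL fusions, gave no call among 6 and a median of -0.11, with Hoxa9 at -0.18 ± 0.10 and Hoxa10 at -0.29 ± 0.18.

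No gene of the lymphoid priming list was called in either direction. Of 20 lymphoid priming genes 14 had a negative log2 fold change, with a median of -0.20. Il7r, the interleukin 7 receptor of lymphoid progenitors, went from 13.1 ± 4.99 to 6.65 ± 2.45 CPM (-0.98 ± 0.32, adjusted p = 0.15), the chromatin organizer gene Satb1 from 76.7 ± 14.7 to 54.7 ± 8.64 CPM (-0.49 ± 0.15, adjusted p = 0.13), and both overlapped between the ages. Dntt, the polymerase that adds bases at V(D)J junctions, stood at 1258 to 2152 and 976.1 to 1631 CPM. Of 10 MHC class II genes 9 were positive, with a median of 0.41 in controls and 0.64 in MLL-ENL and no call in either. Cd74, the invariant chain, stood at 273.1, 691.1, 522.3 and 231.4 CPM at 6 months and at 1563, 1082, 1062 and 550.5 CPM at 12 months (1.31 ± 0.37, adjusted p = 0.099). Library 9814 at 12 months lay within the 6 month range of Cd74 and 1618 and 1717 were the lowest. Of 18 megakaryocyte genes 14 were positive, with a median of 0.27 and no call.

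None of 20 mitosis genes was called by edgeR, but 18 were positive, 8 had an unadjusted p under 0.05, against 47.3% and 16.1% of all tested genes, and the median was 0.22. Kif20a, a kinesin of the cleavage furrow, stood at 141.3 to 177.3 CPM and then at 191.1 to 221.7 CPM (0.42 ± 0.10, adjusted p = 0.062), and the checkpoint kinase gene Bub1b at 197.2 to 223.8 and 248.5 to 330.7 CPM (0.43 ± 0.10, adjusted p = 0.067). The summed CPM of the list overlapped between the ages, at 3043 to 3918 at 6 months and 3620 to 4231 at 12 months. In MLL-ENL the median of the same genes was -0.07. Outside the list, called genes known to act in mitosis included Prc1, which bundles the central spindle, at 0.60, Ttk, a spindle checkpoint kinase, and Ckap2l, a spindle protein, at 0.52 each, and Cit, the citron kinase of cytokinesis, at 0.46. Their log2 fold changes in MLL-ENL were 0.12, 0.10, 0.09 and 0.13. These genes were picked from the calls in controls, so they are no separate support for the list. Smaller values in MLL-ENL can follow in part from that choice. Wapl, which releases cohesin from chromosomes, was called in controls as well (0.50 ± 0.09, adjusted p = 0.025) and stood at 0.38 in MLL-ENL (adjusted p = 0.054). DNA replication genes had a median of 0.07 and no call among 20, with Rrm2, a subunit of ribonucleotide reductase, at 0.48 ± 0.14 (adjusted p = 0.12). Replication-dependent histone genes, whose mRNA mostly lacks a poly(A) tail, gave no call, with 11 of 12 negative and a median of -0.57. Hist1h4d had 26.5 to 78.4 CPM at 6 months and 16.7 to 30.2 CPM at 12 months (-1.19 ± 0.29, adjusted p = 0.067).

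Genes of protein synthesis and energy supply gave no call within their lists, which do not hold the called Rps10, Rpl27a and Atp5d. Of 24 cytoplasmic ribosomal protein genes 19 were negative, with a median of -0.24 and no call. Their summed CPM overlapped between the ages, at 22929 to 31565 at 6 months, the highest in 1717, and 22059 to 24241 at 12 months. All 7 tested mitochondrially encoded genes were negative, with a median of -0.18 and no call. The share of counts from mitochondrial genes was 1.17 to 1.46% at 6 months and 0.94 to 1.21% at 12 months. Ribosome biogenesis genes had a median of -0.05, nuclear genes of oxidative phosphorylation -0.06, glycolysis genes -0.04, type I interferon response genes 0.05, DNA repair genes 0.03 and epigenetic regulators 0.00, all with no call. Bst2, an interferon-induced tether of viruses, went from 139.2 ± 28.1 to 96.7 ± 6.36 CPM (-0.53 ± 0.12, adjusted p = 0.057). In a bulk sample, fewer cells of a type and less RNA per cell cannot be told apart.

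**Figure D2:**
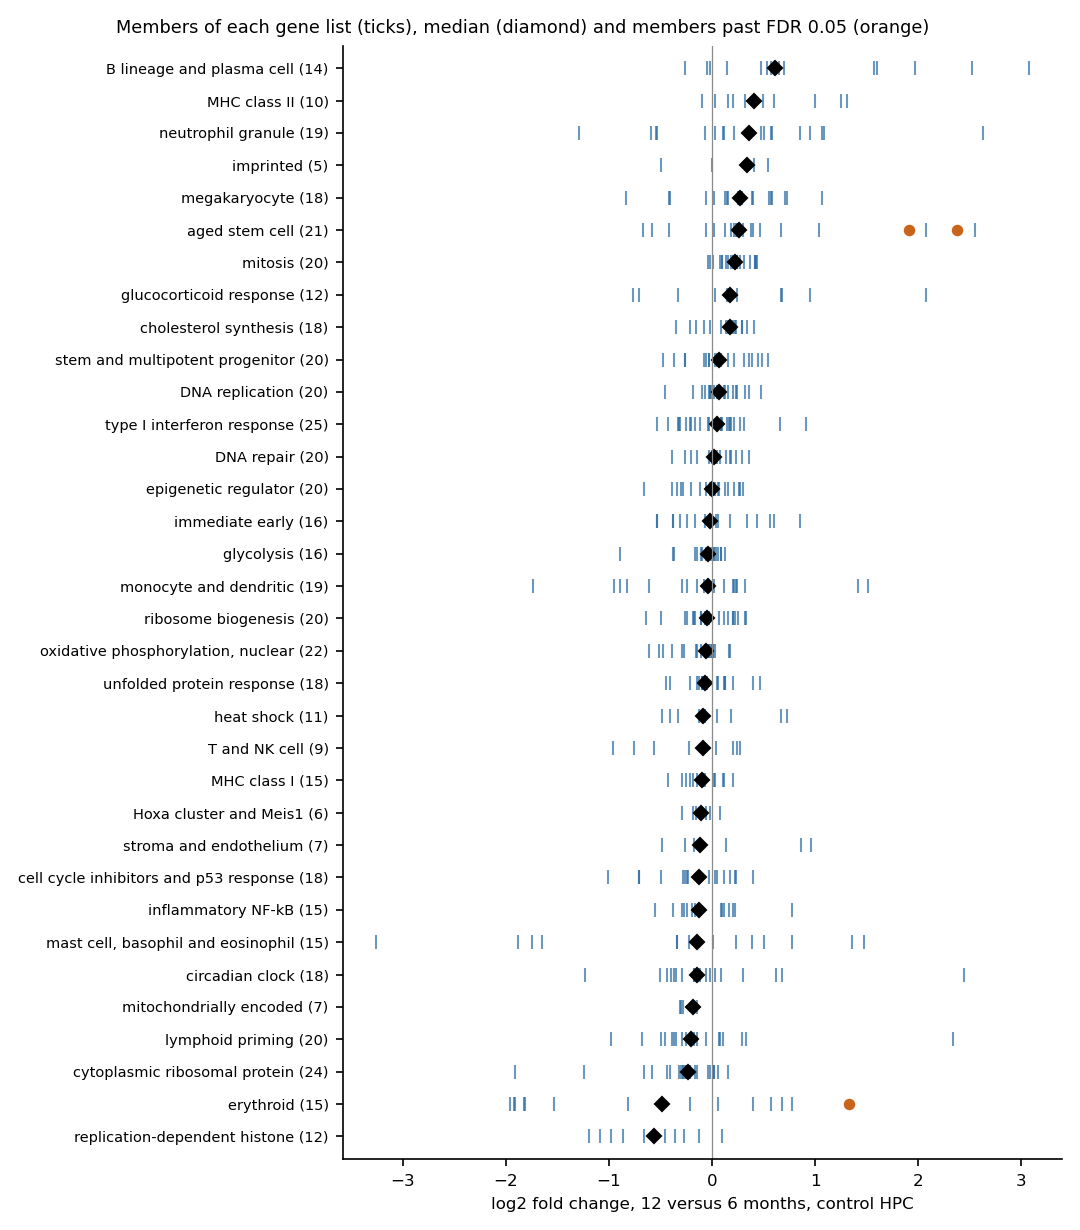
Log2 fold change between 12 and 6 months in control HPC for the members of 34 gene lists, as ticks, with the median as a diamond, members past FDR 0.05 in orange and the number tested in brackets. Only Aldh1a1, Nupr1 and Gata1 are called within these lists, and the list medians lie between -0.57 for histones and 0.61 for B lineage genes.

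Transcripts of mature cells were high in single libraries. Immunoglobulin genes together made up 1456 to 5279 CPM in the 6 month libraries and 1865, 3209 and 4837 CPM in 3 of the 12 month libraries, but 70947 CPM, 6.67% of counts, in library 9757. Of 14 tested B lineage and plasma cell genes 11 were positive with a median of 0.61, and none was called. Igkc, the kappa light chain, stood at 107.3 to 1284 CPM at 6 months and at 279.0 to 18619 CPM at 12 months (3.08 ± 1.22, adjusted p = 0.23), while the B cell antigen Ms4a1 was at 0.168 CPM or less at 6 months and 2.60 CPM or less at 12 months. Eosinophil granule genes summed to 1502 CPM in 1618 and to 2.63 to 84.5 CPM in the other 6 month libraries, against 45.1 to 169.2 CPM at 12 months. Secondary granule genes of neutrophils summed to 923.8 CPM in 9756 and to 9.78 to 51.1 CPM in the other 12 month libraries, against 25.5 to 222.8 CPM at 6 months. Globin genes summed to 21.0 to 96.2 CPM at 6 months and 15.6 to 38.4 CPM at 12 months. Monocyte and dendritic genes had a median of -0.04 among 19 with no call, and Mpeg1, perforin-2, of macrophages, stood at 4.08 to 15.9 CPM and then at 1.70 to 3.37 CPM (-1.74 ± 0.41, adjusted p = 0.062). With the immunoglobulin genes removed before scaling, 79 genes were called and 70 of the 73 were among them. The part of the other cell types in the calls was not tested.

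**Figure D3:**
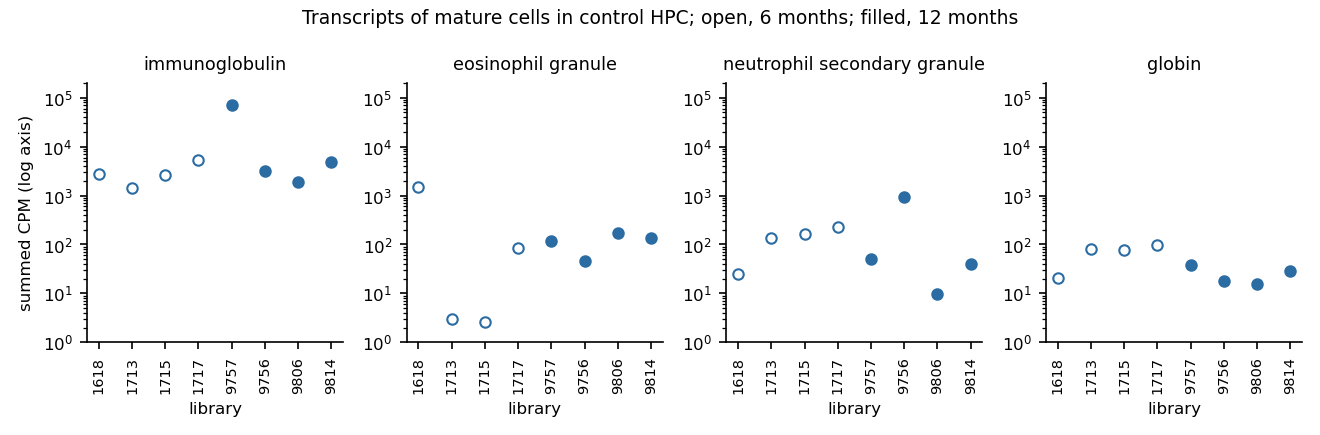
Summed CPM of immunoglobulin, eosinophil granule, neutrophil secondary granule and globin transcripts in each control library, on a log axis, open at 6 and filled at 12 months. Library 9757 stands apart for immunoglobulin (70947 CPM), 1618 for eosinophil granule (1502 CPM) and 9756 for neutrophil granule transcripts (923.8 CPM).

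The same ages were compared in the 8 MLL-ENL libraries, which share no sample with the controls but share the fit and the split of identifiers by age. Unlike the controls, these ages were not balanced in sex transcripts. At 6 months 2 libraries held Xist and 2 held Y chromosome transcripts, against 3 and 1 at 12 months. The part of this in the overlap with the controls was not tested. In MLL-ENL, 39 genes were higher and 48 lower at 12 months, 0.666% of those tested. In either direction, 10.0% of all tested genes did not overlap between the ages. All 73 genes called in controls had the same sign in MLL-ENL, against 70.0% of all tested genes. Of them 60 had an unadjusted p under 0.05 in MLL-ENL, 55 did not overlap in the same direction, and 18 were called, which is 24.7% of the control calls and 20.7% of the MLL-ENL calls. For the 60 no share over all tested genes is given here, and the 10.0% is no like baseline for the 55, as it takes in either direction. The 10 that rose in both were Cldn19, H2-T3, Aldh1a1, Clec1a, Aspa, Cap1, Sdc2, Zfp691, Gatad1 and Mrtfb. The 8 that fell in both were Rps4l, Ptprcap, Csrp1, Atp5d, Ppdpf, Vim, Csk and the gene 9530068E07Rik. H2-T3, a class Ib MHC gene, had 21 reads at 6 and 70 at 12 months in controls (2.42 ± 0.46, adjusted p = 0.039) and a log2 fold change of 2.45 in MLL-ENL. Aldh1a1 rose there from 2.69 ± 0.496 to 9.72 ± 2.34 CPM (1.86 ± 0.27, adjusted p = 0.0057).

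**Figure D4:**
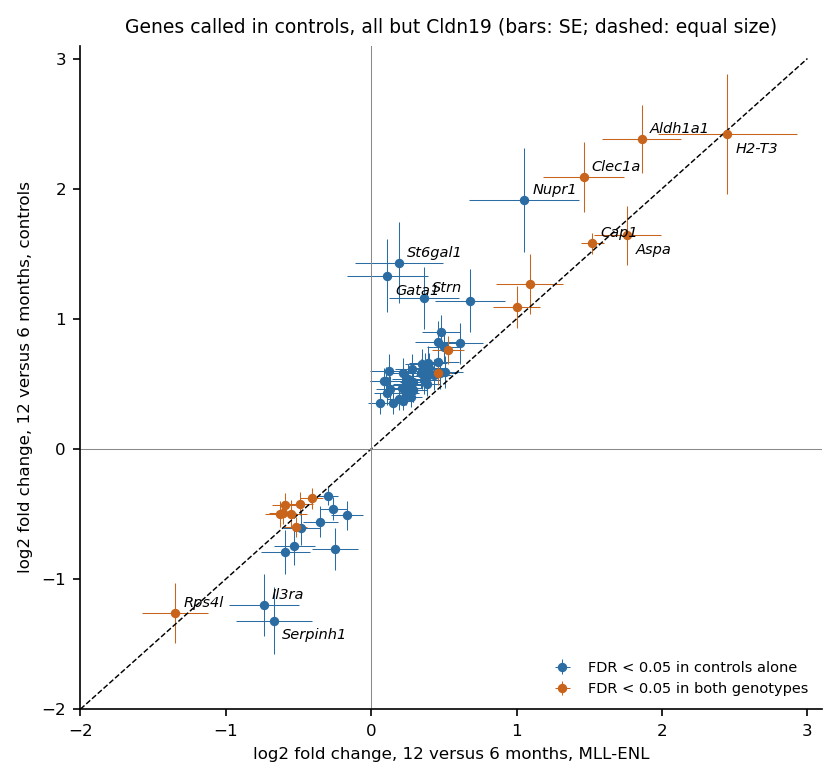
Log2 fold change between 12 and 6 months in MLL-ENL (horizontal) and control HPC (vertical) with SE for 72 of the 73 genes called in controls, Cldn19 (3.91 and 4.37) lying outside the axes. All points share the sign of both axes. St6gal1 and Gata1 lie farthest from the dashed line of equal size.

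Where the sizes differed, the difference itself was tested and no gene passed. By edgeR the smallest adjusted p of the difference between the genotypes was 0.66, with 333 genes at an unadjusted p under 0.05. Of the 73 genes, 14 had an unadjusted p of the difference under 0.05. Gata1 (difference 1.22 ± 0.39, unadjusted p = 0.0063) and St6gal1 (1.24 ± 0.43, unadjusted p = 0.01) had the largest differences of these. Gata1 stood at 2.01 to 3.01 CPM at 6 months and 1.67 to 3.99 CPM at 12 months in MLL-ENL, St6gal1 at 5.74 to 12.7 and 6.86 to 11.7 CPM, and Strn at 32.3 to 39.3 and 38.2 to 52.3 CPM. The mitosis genes Prc1, Ttk, Ckap2l and Cit were also among the 14, with Cavin1, Ctnna1, Prr14, Ints10 and Nat2. Size was larger in controls than in MLL-ENL in 64 of the 73, but these genes were selected by their values in controls. DESeq2 called 3 genes for the difference, the immunoglobulin variable genes Igkv16-104, Ighv5-6 and Igkv6-17. Each was carried by a few libraries, as Ighv5-6, at 106.3 CPM in 9757 and 127.4 CPM in the MLL-ENL library 1709.

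The control HPC of younger mice were set beside these ages by scaling all 20 control HPC libraries together. The younger libraries came from newborn (P0) liver and from bone marrow at 10 weeks, and were labelled no dox. The 10 week libraries share 1 label and are given here as 2 groups of 4, the first with 2-digit and the second with 4-digit animal identifiers in their titles. As tissue, doxycycline label and identifiers differ from those at 6 and 12 months, these levels are a description. Aldh1a1 had mean levels of 0.211 CPM at P0, 1.16 and 0.652 CPM in the 10 week groups, 2.58 CPM at 6 months and 13.6 CPM at 12 months. Clec1a followed the same order from 10 weeks on, with 0.983 and 1.25 CPM, 3.08 CPM and 13.2 CPM, as did Aspa, with 0.863 and 0.824, 3.01 and 9.45 CPM, and Sdc2, with 3.32 and 2.64, 5.51 and 13.3 CPM. Cap1 differed from this order, with means of 272.4 CPM at P0, 190.6 and 215.8 CPM at 10 weeks and 199.2 CPM at 6 months, and 593.8 CPM at 12 months.

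Of all tested genes, 601 had every 12 month library above every 6 month one, all 55 called genes that rose included. In 93 (0.712% of all tested genes) every 12 month library lay above every 10 week library as well. Of the 55, 13 did so, but as the calls fixed the 6 month part of this pattern, 0.712% is not a like baseline. The 13 were Cldn19, H2-T3, Aldh1a1, Clec1a, Aspa, Cap1, Sdc2, Zfp691, Tom1l1, Ckap2l, Pcsk7, Traf2 and Dnm1l. For 30 of the 55 the 12 month mean lay within the range of the 10 week libraries, and for 32 the 6 month mean was below both 10 week means. Gatad1 is an example, with 207.8 and 180.6 CPM at 10 weeks, 133.9 CPM at 6 months and 225.8 CPM at 12 months, and Gnb1 another, with 1576, 1419, 1153 and 1668 CPM. The calls favoured low 6 month levels in advance, and no share over all tested genes is given here beside the 30 or the 32. Of all tested genes, 509 lay below every 6 month library at 12 months, all 18 called genes that fell included. Below every 10 week library as well lay 83 (0.636% of all tested genes). Of the 18, 7 did so, namely Il17ra, Csrp1, Nat2, Rpl27a, Rps10, Atp13a2 and Rps4l. Il3ra was not among them, with a mean of 2.83 CPM in the first 10 week group against 2.84 CPM at 12 months, and neither was Serpinh1, with 1 library at 7.01 CPM in that group.

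**Figure D5:**
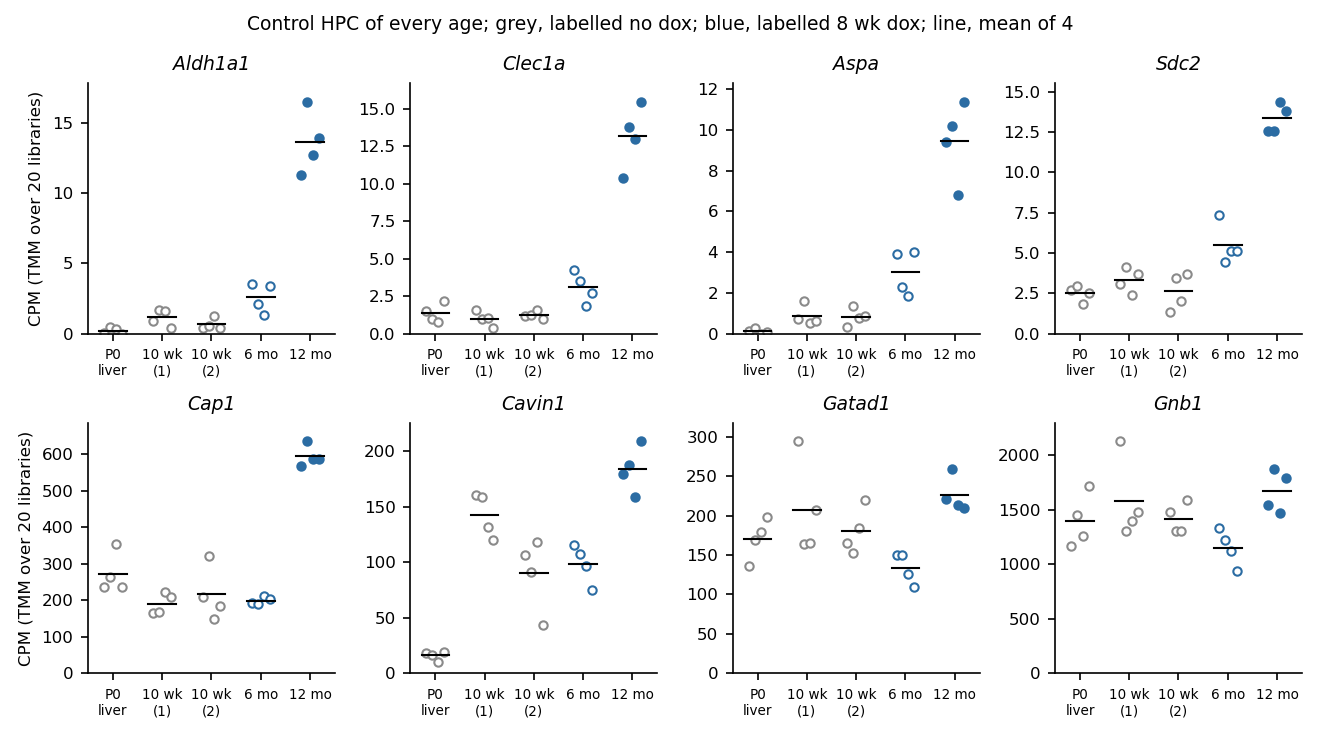
CPM of 8 called genes in each control HPC library, scaled over all 20, at P0, in 2 groups at 10 weeks, (1) and (2), and at 6 and 12 months, with lines at the means of 4. Aldh1a1, Clec1a, Aspa and Sdc2 are higher at 6 months than at 10 weeks and highest at 12 months, Cap1 is high at 12 months and near its 10 week levels at 6 months, and Gatad1 and Gnb1 are lowest at 6 months among the bone marrow groups.

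The number of called genes rested on single libraries and on the fit. Many adjusted p-values lay at 0.039, close to the threshold. Leaving out 1 library in turn gave 10 calls without 9814 or 1715, 12 without 9756 or 9806, 13 without 1717, 24 without 1713, 28 without 9757 and 137 without 1618. With the 8 control libraries fitted alone 6 genes were called, and with a term for the sex transcripts 239, all 73 among them. Aldh1a1, Clec1a and Cap1 passed the test in each of the 16 settings tried, and Aspa, Zfp691, Cavin1, Ccdc6, Gatad1 and Ptprcap in 15 of them. Every other call was lost in at least 1 of the 8 fits that left out 1 library. Of these fits, Mrtfb was called in 6, Cldn19 in 4, Strn in 3, H2-T3 and Sdc2 in 2 each, Nupr1 in 1 and Ttk in 0. Each of the 73 genes kept its direction in every setting that tested it. As the ages did not overlap in any of the 73, leaving out libraries could hardly have reversed a direction.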

How the data were processed

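Per the labels' protocols, extraction used the Qiagen RNeasy micro plus kit, and SMARTer chemistry from Clontech gave the libraries. Deposited were unnormalized read counts for each Ensembl gene, made by the authors with STAR 3.0.4, Subread and featureCounts 1.4.5 per the submitters' processing notes. The sources used here do not give the genome build, annotation or strand setting. Symbols, positions and lengths came from GENCODE vM21 (GRCm38) by gene ID, with a symbol for 40254 of 41388 mouse genes.

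The 16 HPC libraries at 6 and 12 months were fitted together with edgeR 4.0.16 in R 4.3.3 (TMM, filterByExpr, 1 mean per group, quasi-likelihood F test, Benjamini-Hochberg FDR 0.05; common biological coefficient of variation 0.224). CPM are TMM-scaled, and the fit was tested on simulated data. Intervals cover counting error only. No pair of control libraries was a duplicate (chi-square per degree of freedom at least 14.21 in 12 pairs). By rule, the text names, by size of change, up to 15 called genes in each direction (mean log2 CPM at least 1 with prior count 2, no overlap, no predicted gene), the 5 most abundant in each direction, up to 4 called or else 2 members of each list, Kmt2a, Mllt1, sex-linked genes and sorting antigens. Members, lists and tests were chosen with earlier results of these data known. Of 37 lists 3 are checks, and no list was tested as a set. Alternatives were RLE scaling, no filter, DESeq2 1.42.0, the compared groups alone, a term for sex transcripts and leaving out each library. Another 3 were added after seeing the data, namely immunoglobulin genes removed, and fits without 1618 and 9806 and without 1618, 9806 and 9757. Some genes are not reported here.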

Additional observations from a re-analysis of the deposited data

Results flagged for a closer look

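Among 190 sets of 4 control values examined, 16 held a value that lay farther from the others than Dixon's 95% limit, and chance gives about 1 in 20. At 6 months library 1717 was the lowest for Zfp691 (6.17 CPM against 8.56 to 8.83) and for the summed circadian clock genes (324.2 CPM against 437.3 to 446.8). It was the highest for Rpl27a (64.8 CPM), Fcgr2b (23.1 CPM), the summed mitosis genes (3918 CPM against 3043 to 3187) and the nuclear oxidative phosphorylation genes (13597 CPM against 10317 to 10802). Library 1618 was the lowest for Rhoa (285.1 CPM against 338.7 to 346.1) and the highest for mast cell, basophil and eosinophil genes (1620 CPM) and for the eosinophil granule genes alone (1502 CPM).

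At 12 months library 9757 was the highest for immunoglobulin transcripts (70947 CPM), B lineage and plasma cell genes (20066 CPM), lymphoid priming genes, which include Ighm (33036 CPM), and the share of counts in the 50 most abundant genes (19.2% against 14.2 to 14.3%). Library 9756 was the highest for neutrophil secondary granule genes (923.8 CPM) and for cell cycle inhibitors and p53 response genes (499.6 CPM against 422.3 to 430.7). Library 9814 was the highest for interferon response genes (2740 CPM against 2037 to 2090).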

How the results depend on the processing

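Of the 73 genes called in controls, 3 were called in all 16 settings and 9 each time 1 library was left out. The count was 78 with RLE scaling, 13 without a filter on low counts (all 13 among the 73), 453 with DESeq2 (70 of the 73), 6 with the compared groups alone (5 of the 73) and 239 with the sex term, where the direction split was 168 higher and 71 lower. It was 65 without 1618 and 9806 (36 of the 73) and 39 without 1618, 9806 and 9757 (26 of the 73). Without a single library it ran from 10 to 137. For MLL-ENL the main count of 87 became 382 with DESeq2 and 418 with the sex term, and ran from 21 to 55 without a single library. For the difference between the genotypes it was 0, and 3 with DESeq2. Of the other settings, RLE scaling shifted the median of all log2 fold changes by 0.004. Of 37 list medians 19 changed sign in some setting, and 5 of 370 values moved beyond the spread. The causes were not tested. No paired analysis was possible because the controls of both ages carry different animal identifiers. Genes below about 1 CPM, such as Cldn19, rest on few reads.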
